A study of Homo sapiens with 18 samples.

Results

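The genes described here were 10 that encode cytosolic heat shock chaperones and their helpers, HSPA8, HSPA1A, HSPA1B, HSP90AA1, BAG3, DNAJA1, DNAJB1, DNAJB4, HSPH1 and HSPA4L. They were selected by gene symbol from the 60483 genes listed in the expression table, after DNAJB4 and HSPA4L had been noted for higher levels with stearate in these samples. All 10 had a mean of at least 1 TPM, a transcript abundance scaled for length and sample total, as did 13789 genes in all, and the tests were run over those 13789 genes. RNA was measured in OVCAR5, a human ovarian cancer cell line labelled as high grade serous adenocarcinoma, in 18 samples.

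The samples formed 6 conditions with 3 replicates each. All cells were wild type and received medium with albumin freed of fatty acids for 24 h. The control conditions held no added fatty acid and either the vehicle DMSO or 1 µM CAY10566, an inhibitor of stearoyl-CoA desaturase-1, the enzyme that turns stearate into oleate. The stearate conditions held 50 µM stearate, a saturated fatty acid, with DMSO or with 1 µM CAY10566. The oleate conditions held 50 µM oleate, its monounsaturated counterpart, with DMSO or with 1 µM CAY10566. In what follows, control, stearate and oleate mean the 6 samples of each fatty acid group with DMSO and CAY10566 pooled. A single cell line was used, and the labels do not say whether the replicates were separate cultures, so the p-values measure only the spread between these samples.

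The TPM values of every sample sum to the same total, so the depth behind them is unknown and the number of replicates sets the precision. Epithelial markers were present at high levels (EPCAM 331 TPM and KRT8 895 TPM on average), and the sum of the 6 epithelial markers ran from 2992 to 3134 TPM in control, from 2410 to 2602 TPM in stearate and from 2729 to 3045 TPM in oleate. Of 5 serous ovarian markers, PAX8 (11.8 TPM) and MECOM (1.61 TPM) were above 1 TPM on average, whereas WT1 (0.126 TPM), MUC16 (0.632 TPM) and SOX17 (0.0411 TPM) were below it. The 6 leukocyte and fibroblast markers summed to 88.6 to 117 TPM in control, 87.9 to 95.6 TPM in stearate and 102 to 121 TPM in oleate, nearly all of it CD68, a lysosomal protein gene, while PTPRC and COL3A1 averaged under 0.01 TPM. The part of cell composition in the results below was not tested.

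HSP70 proteins bind unfolded stretches of other proteins in cycles driven by ATP. J-domain proteins (the DNAJ genes) bring them clients and start ATP hydrolysis, and exchange factors of the HSP110 and BAG families release the nucleotide so that the client is let go. HSP90 takes over partly folded clients such as kinases and steroid receptors. When unfolded proteins accumulate, the transcription factor HSF1 forms trimers and binds heat shock elements, which are alternating GAA and TTC units in the promoters of many of these genes.

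The promoters are shown because such elements are known in many genes of these families. RefSeq promoter windows of 300 bases (250 before and 50 after a start site, GRCh38.p14) matched all 10 genes, and there were 16 windows because DNAJB4, HSPA4L, DNAJB1 and HSP90AA1 have several start sites. Each window was searched on both strands for a pair of facing units, GAANNTTC or TTCNNGAA, whose matches may overlap. A match lay in 9 of the 16 windows and in at least 1 window of 8 of the 10 genes, while 13.49% of all 35116 windows held one. Stretches of 80 bases before the start site are given below 5′ to 3′ on the gene's strand, with the matches in capitals.
HSPA1A, chr6:31815401-31815480, plus strand: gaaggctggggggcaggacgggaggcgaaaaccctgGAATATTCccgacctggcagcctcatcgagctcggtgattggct
HSPA1B, chr6:31827597-31827676, plus strand: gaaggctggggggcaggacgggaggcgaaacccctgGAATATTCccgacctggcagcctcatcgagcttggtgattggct
HSPA8, chr11:123062146-123062225, minus strand: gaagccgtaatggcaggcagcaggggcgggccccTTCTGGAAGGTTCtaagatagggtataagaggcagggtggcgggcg
HSP90AA1, chr14:102087081-102087160, minus strand: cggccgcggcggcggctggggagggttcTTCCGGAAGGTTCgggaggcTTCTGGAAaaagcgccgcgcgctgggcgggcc
DNAJA1, chr9:33025039-33025118, plus strand: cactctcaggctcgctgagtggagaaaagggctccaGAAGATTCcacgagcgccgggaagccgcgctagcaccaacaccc
DNAJB1, chr19:14518416-14518495, minus strand: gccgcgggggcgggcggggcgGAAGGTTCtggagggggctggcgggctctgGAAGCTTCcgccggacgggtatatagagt
DNAJB4, chr1:78004805-78004884, plus strand: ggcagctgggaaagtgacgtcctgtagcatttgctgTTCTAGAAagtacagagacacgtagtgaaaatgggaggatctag
HSPA4L, chr4:127782116-127782195, plus strand: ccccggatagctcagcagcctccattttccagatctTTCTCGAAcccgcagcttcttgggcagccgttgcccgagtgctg

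The HSPA1A and HSPA1B stretches share the same match, 106 and 105 bases before the start site. DNAJB4 and HSPA4L each held a single match in 1 of their windows, which lay 98 and 170 bases before the start site. HSPA8, DNAJA1 and HSP90AA1 were the 3 members with 3 alternating units in a row, a longer form found in 0.490% of all windows. In DNAJA1 it lay just after the start site, outside the stretch shown. No match lay in the windows of HSPH1 and BAG3. A match describes letters only and says nothing of binding.

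DNAJB4 (chr1:77979175-78017964 on GRCh38 in GENCODE 44, plus strand, 3 exons) encodes a class B J-domain co-chaperone of HSP70. Its level was 6.43, 6.03 and 5.72 TPM in the 3 DMSO samples and 6.99, 5.78 and 7.48 TPM with CAY10566 alone. It was 12.93, 13.62 and 10.74 TPM in stearate+DMSO and 11.99, 9.82 and 10.78 TPM in stearate+CAY10566. The oleate samples held 6.70, 8.76 and 8.67 TPM with DMSO and 9.38, 6.46 and 7.96 TPM with CAY10566. Every stearate sample lay above every control and every oleate sample, and 4 of the 6 oleate samples lay above every control sample. The group means were 6.41 ± 0.71 TPM in control, 7.99 ± 1.18 TPM in oleate and 11.6 ± 1.45 TPM in stearate (SD, n = 6). In order of the condition means, DMSO, CAY10566, oleate+CAY10566 and oleate+DMSO ran from 6.06 to 8.04 TPM with neighbours that overlapped, then followed stearate+CAY10566 (10.9 ± 1.09 TPM) and stearate+DMSO (12.4 ± 1.504 TPM; SD, n = 3), which also overlapped each other.

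HSPA4L (chr4:127781821-127840733, plus strand, 19 exons) encodes an HSP110 family exchange factor for HSP70. It was the member with the lowest level. Its TPM was 3.79, 4.40 and 4.14 with DMSO and 5.06, 4.19 and 4.58 with CAY10566 alone. Stearate+DMSO gave 7.40, 6.99 and 5.61 TPM and stearate+CAY10566 gave 7.34, 6.84 and 7.39 TPM. Oleate+DMSO gave 6.06, 6.07 and 4.61 TPM and oleate+CAY10566 gave 4.86, 5.31 and 5.08 TPM. All 6 stearate samples lay above all 6 control samples, and 5 of them lay above all oleate samples, the exception being replicate 3 of stearate+DMSO. Means were 4.36 ± 0.43 TPM in control, 5.33 ± 0.61 TPM in oleate and 6.93 ± 0.69 TPM in stearate (SD, n = 6).

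Because both genes were chosen on the stearate contrast, the stearate differences are a description without a test. On the log2(TPM + 1) scale, which understates the change of low genes, DNAJB4 was higher in stearate than in control by 0.77 ± 0.09 (SE) and HSPA4L by 0.56 ± 0.08. The same difference of DNAJB4 was 0.92 among the DMSO samples and 0.62 among the CAY10566 samples, and that of HSPA4L was 0.58 and 0.55. DNAJB4 and HSPA4L were the 2 members past both a false discovery rate (FDR) of 0.05 and a fold requirement (the higher group above the lower by more than 25% on the TPM + 1 scale), where 3.46% of all genes were past both and higher (477 genes, and 796 without CAY10566 replicate 3). As these genes were chosen for this rise, nothing is read from that count. By the FDR alone it was 9 of 10, all but HSP90AA1, where 13.5% of all genes were, and it was 7 after the rescaling described with the oleate results (7.76% of all genes) and 2 with the CAY10566 samples alone (0.567%). The samples of the groups did not overlap for 5 members, DNAJB4, HSPA4L, DNAJB1, DNAJA1 and HSPH1, where 4.70% of all genes were higher without overlap. The median over the 10 members was 0.21 (0.19 without DNAJB4 and HSPA4L) and that over all genes was 0.06.

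**Figure D1:**
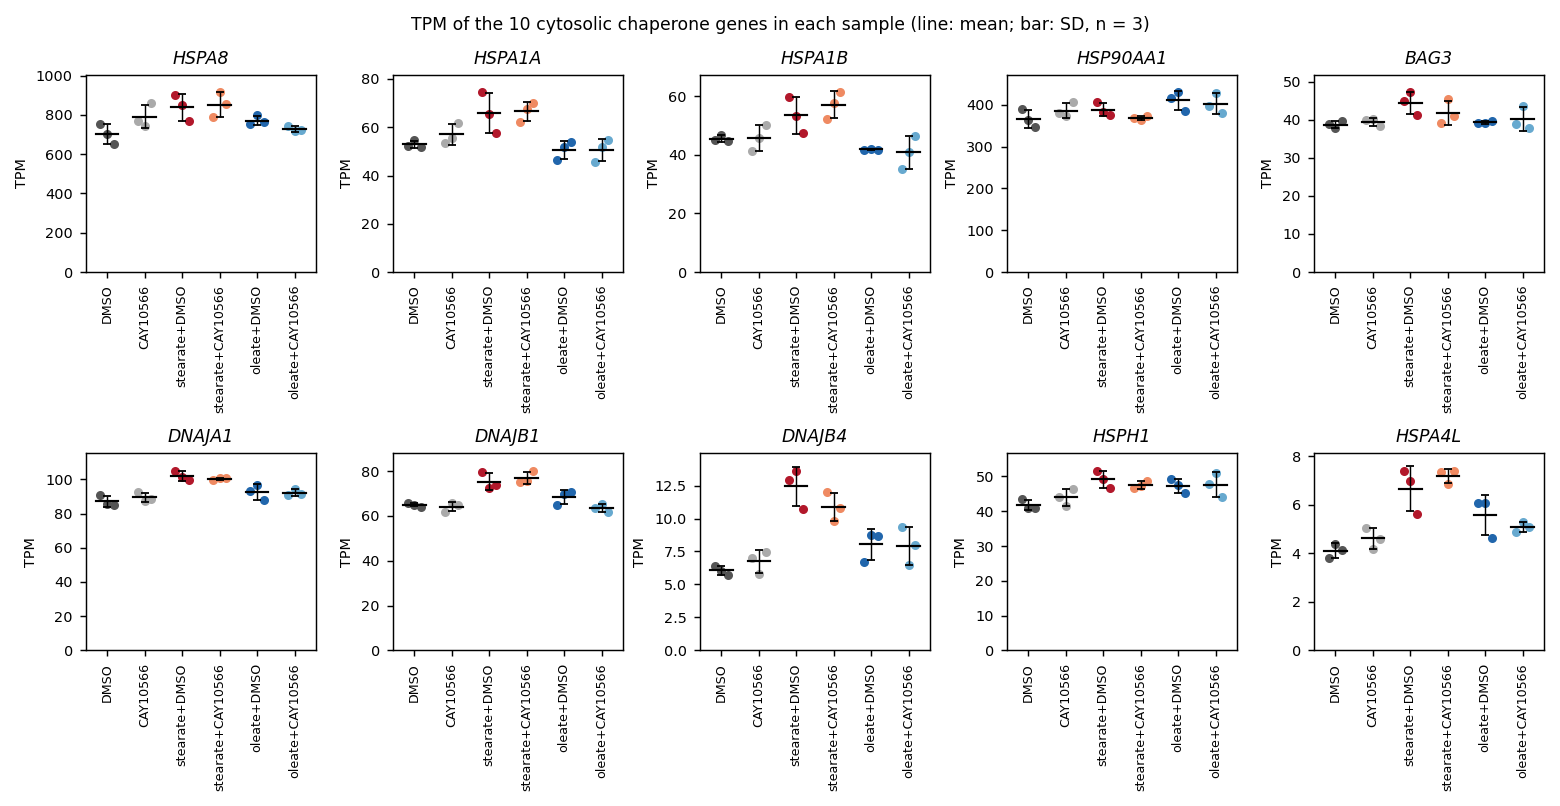
TPM of each gene in each of the 6 conditions, with a separate axis per gene that starts at 0. Points are samples, lines are means and bars are SD (n = 3). All stearate samples of DNAJB4 lie between 9.82 and 13.62 TPM, above every control (5.72 to 7.48 TPM), whereas HSP90AA1 in stearate (363 to 407 TPM) lies within the range of control apart from a single sample.

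HSPA8, the constitutive HSP70 (HSC70), was the most abundant member per length, with a mean of 781 TPM over the 18 samples. It ran from 654 to 858 TPM in control (median 751), from 766 to 914 TPM in stearate (median 851) and from 717 to 797 TPM in oleate (median 749). The ranges overlapped, with 2 of 6 stearate samples above all control samples. Stearate exceeded control by 0.18 ± 0.05 log2 units.

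HSPA1A and HSPA1B are the stress-inducible HSP70 genes, neighbours on chromosome 6 (chr6:31815543-31817946 and chr6:31827738-31830254) with a single exon each. Of the 100-base windows of the HSPA1A transcript, 72.4% occur unchanged in HSPA1B, so how the reads were split between them is uncertain, and their sum is given too. HSPA1A ran from 51.9 to 61.9 TPM in control (median 54.0), from 57.7 to 74.4 TPM in stearate (median 66.6) and from 45.6 to 54.6 TPM in oleate (median 51.6). HSPA1B ran from 41.3 to 50.1 TPM in control, from 47.3 to 61.2 TPM in stearate and from 35.2 to 46.4 TPM in oleate. For each of them 5 of 6 stearate samples lay above all control samples, and all 6 lay above all oleate samples. The sum of both was 101 ± 6.25 TPM in control, 121 ± 10.96 TPM in stearate and 92.0 ± 6.84 TPM in oleate (SD, n = 6). Its log2 difference was 0.27 ± 0.06 for stearate against control and 0.40 ± 0.06 for stearate against oleate.

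The J-domain co-chaperones DNAJB1 and DNAJA1, which serve the same HSP70s, had small differences and narrow groups. DNAJB1 ran from 61.9 to 65.7 TPM in control, from 72.3 to 80.1 TPM in stearate and from 61.7 to 70.5 TPM in oleate. DNAJA1 ran from 84.8 to 92.4 TPM in control, from 99.5 to 105 TPM in stearate and from 87.8 to 96.9 TPM in oleate. In both genes the stearate samples lay apart from all other samples. Their stearate differences were 0.23 ± 0.04 and 0.20 ± 0.03 log2 units.

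HSPH1 (HSP110, also called HSP105) is an exchange factor of the HSP110 family, and BAG3 links HSP70 to small heat shock proteins and to selective autophagy. HSPH1 ran from 40.9 to 46.5 TPM in control, from 46.6 to 51.6 TPM in stearate and from 43.99 to 51.1 TPM in oleate. It was higher by 0.17 ± 0.04 log2 units in stearate and by 0.14 ± 0.04 in oleate, so that stearate and oleate differed by 0.03. BAG3 ran from 37.9 to 40.3 TPM in control, from 39.1 to 47.2 TPM in stearate and from 38.0 to 43.7 TPM in oleate. Here 5 of 6 stearate samples lay above all controls, and the difference was 0.14 ± 0.04.

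HSP90AA1, the stress-inducible HSP90, stood at 348 to 406 TPM in control (median 377), 363 to 407 TPM in stearate (median 375) and 380 to 430 TPM in oleate (median 407). It was the member whose stearate and control levels lay closest together, with a log2 difference of 0.01 ± 0.04, which was -0.05 after the rescaling described with the oleate results. Stearate was lower than oleate by 0.10 ± 0.04 log2 units.

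Between stearate and oleate, also a description because it rests on the same stearate samples, 4 members were past the FDR and the fold and higher in stearate. They were DNAJB4 (0.50 ± 0.09), HSPA1B (0.41 ± 0.06), HSPA1A (0.38 ± 0.06) and HSPA4L (0.33 ± 0.08), where 1.60% of all genes were called higher. By the FDR alone it was 7 members (6.85% of all genes) and 3 with the DMSO samples alone (3.48%), and DNAJB4, HSPA1A, HSPA1B, DNAJB1 and DNAJA1 did not overlap (2.94%). No member was lower in stearate than in oleate at that FDR, where 14.3% of all genes were, and 1 member was when CAY10566 replicate 3, stearate+DMSO replicate 1 or oleate+CAY10566 replicate 3 was left out.

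The replicates of stearate+DMSO differed in all 10 members. Replicate 1 was above the mean of its condition in 10 of 10 members and replicate 3 in 0 of 10, with median deviations of 0.07 and -0.11 log2 units. Over all genes the median deviations of these samples were 0.04 and -0.04. After rescaling by size factors the members' medians were 0.03 and -0.07, with 9 and 3 of the 10 above the mean. In the other 5 conditions a replicate was above the mean of its condition in 2 to 9 of the 10 members. Without any single sample the stearate difference of DNAJB4 stayed between 0.73 and 0.81, and that of HSPA4L between 0.53 and 0.62.

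**Figure D2:**
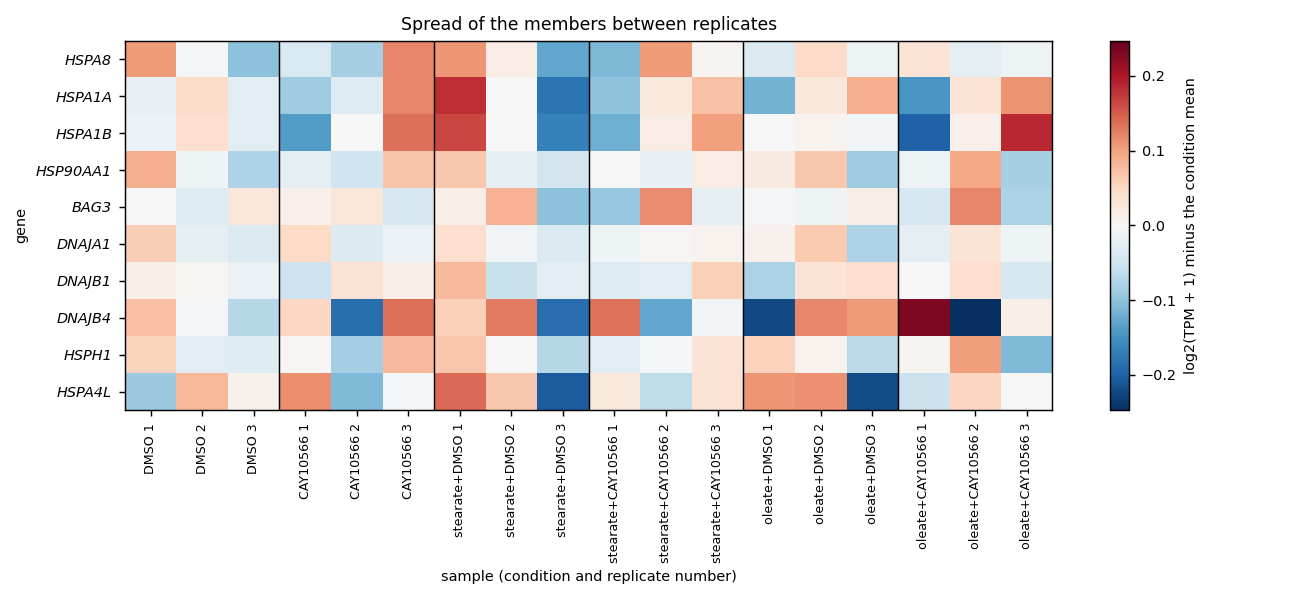
Deviation of each sample from the mean of its condition, in log2(TPM + 1), for the 10 genes (rows) in the 18 samples (columns, ordered by condition and replicate number). Red is above and blue below the condition mean, and stearate+DMSO replicate 3 is below it in all 10 genes.

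Oleate was compared with control by limma over all 13789 genes, 6 samples against 6. This comparison shares its control samples with the stearate comparison on which DNAJB4 and HSPA4L were chosen, so their oleate differences are also a description without a test. At a Benjamini-Hochberg FDR of 0.05 alone, HSPH1 (0.14 ± 0.04, adjusted p = 0.0174) and HSP90AA1 (0.11 ± 0.04, adjusted p = 0.0487) were higher with oleate. HSPA4L (0.24 ± 0.08) and DNAJB4 (0.27 ± 0.09) were past the same threshold, and they enter the count of 4 higher members as a description alone. With single samples left out the count ran from 1 to 4, and it was 1 without DMSO replicate 1, 2 or 3, CAY10566 replicate 2 or oleate+DMSO replicate 2. HSPH1 passed in 18 of 18 such fits and HSP90AA1 in 4. The share of all genes higher at this FDR was 23.0%, and 0 members were lower, where 2.70% were. With the DMSO and CAY10566 samples pooled, none of the 10 passed the fold requirement as well, in either direction, where 6.46% of all genes were called higher (891 genes, and 1461 without CAY10566 replicate 3) and 0.435% lower. The DMSO samples alone gave 1891 higher genes, and the CAY10566 samples alone gave 0 higher and 3 lower. No member had oleate samples that did not overlap the controls (3.49% of all genes higher, 0.573% lower), and by unadjusted limma p under 0.05 it was 6 members and 37.97% of all genes. The median was 0.05 over the members and 0.09 over all genes.

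HSPA1A (-0.12 ± 0.06, adjusted p = 0.167) and HSPA1B (-0.14 ± 0.06, adjusted p = 0.122) had negative oleate values that did not pass the limma test, as did their sum (-0.13 ± 0.06, adjusted p = 0.123). HSPA8 (0.01 ± 0.05), DNAJB1 (0.03 ± 0.04), DNAJA1 (0.07 ± 0.03, adjusted p = 0.0942) and BAG3 (0.02 ± 0.04) did not pass it either.

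The oleate result depended on the scale. When the samples were rescaled by median-of-ratios size factors, which ran from 0.942 to 1.02 in control and from 0.998 to 1.07 in oleate, the median of all genes moved from 0.09 to -0.0037. Called genes went from 891 higher and 60 lower to 305 higher and 150 lower with oleate, and from 477 higher and 261 lower to 267 higher and 372 lower with stearate. The 4 higher members then no longer passed the limma FDR, with DNAJB4 at 0.18, HSPA4L at 0.15, HSPH1 at 0.04 (adjusted p = 0.387) and HSP90AA1 at 0.01 (adjusted p = 0.916). HSPA1A (-0.22, adjusted p = 0.00957) and HSPA1B (-0.24, adjusted p = 0.0132) passed it in the lower direction. At that FDR 8.89% of all genes were higher and 9.43% lower after rescaling. HSPA8, DNAJB1, DNAJA1 and BAG3 turned from positive to negative values between -0.09 and -0.04. The stearate differences stayed positive for 9 members under the same rescaling, with DNAJB4 at 0.72 and HSPA4L at 0.51, and HSP90AA1 turned negative.

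**Figure D3:**
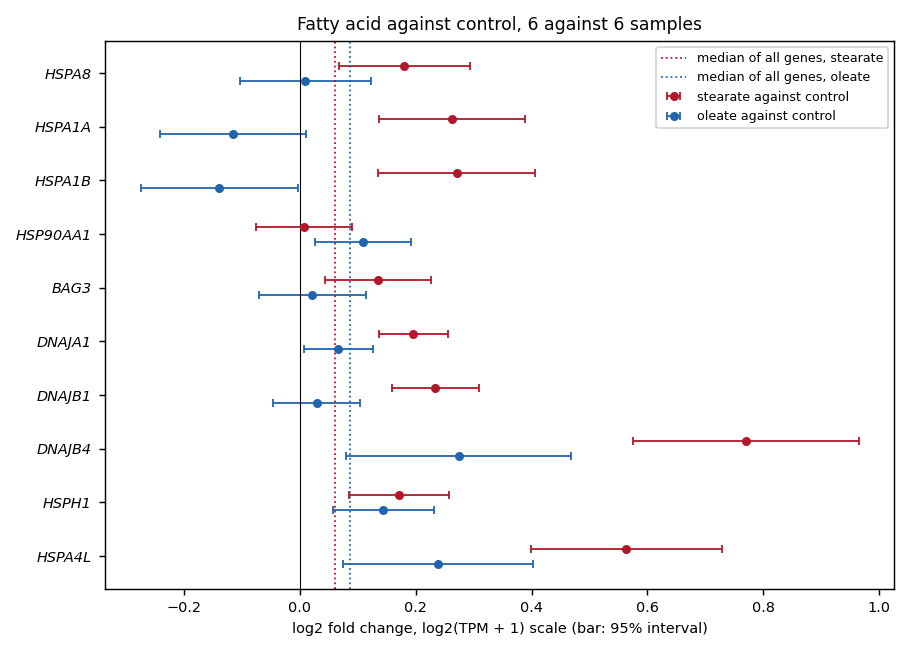
Log2 fold change of each member for stearate against control (red) and oleate against control (blue), on the log2(TPM + 1) scale before rescaling, 6 against 6 samples. Bars are 95% intervals, and dotted lines mark the median of all genes (0.06 for stearate, 0.09 for oleate). DNAJB4 and HSPA4L stand farthest to the right for stearate, and HSPA1A and HSPA1B lie on opposite sides of 0 for stearate and oleate.

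The inhibitor was compared with DMSO in the same way, 9 samples against 9 with the fatty acid as a covariate. No member passed the FDR and fold, nor did any of the 13789 genes (0%), and 748 genes and 0 members had an unadjusted limma p under 0.05. The largest effect of CAY10566 on a member was 0.04 on HSPA4L, with a 95% interval from -0.09 to 0.18. For DNAJB4 it was -0.02 (-0.19 to 0.14), and for the sum of HSPA1A and HSPA1B it was 0.03 (-0.07 to 0.13).

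Within each fatty acid group, 3 samples against 3, the counts of called members were again 0 (0% of all genes with no fatty acid, 0.00725% within stearate and 0% within oleate). With no fatty acid HSPA8 was at 755.6, 700.1 and 653.9 TPM with DMSO and at 768.7, 745.6 and 858.2 TPM with CAY10566. The groups overlapped, and the difference was 0.17 (0.02 to 0.31, limma adjusted p = 0.455). In stearate, CAY10566 shifted DNAJB4 by -0.18 (-0.46 to 0.10) and HSPA4L by 0.10 (-0.13 to 0.33), a description because both were chosen on the stearate samples. In oleate, DNAJB1 was -0.11 (-0.21 to -0.01), with an unadjusted limma p of 0.0393 and an adjusted p of 0.979.

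The stearate effect with and without CAY10566 was compared as an interaction, again with 0 members called and 0.00725% of all genes. This contrast uses the stearate samples on which DNAJB4 and HSPA4L were chosen, so their values are a description without a test. The difference was -0.31 (-0.70 to 0.09) for DNAJB4, -0.03 (-0.36 to 0.30) for HSPA4L and -0.15 (-0.31 to 0.01) for HSP90AA1. The corresponding interaction for oleate had 0 members called and 0% of all genes. HSPA4L was higher with oleate by 0.36 ± 0.11 among the DMSO samples, past the FDR and fold in the model of all 6 conditions. Among the CAY10566 samples it was higher by 0.12 ± 0.11, which was not past them. The difference between these was -0.24 (-0.57 to 0.09), and all these values of HSPA4L are again a description. All 10 oleate interaction values were negative, from -0.00055 for BAG3 to -0.25 for HSPA8 (-0.45 to -0.05, limma adjusted p = 0.449). Of all genes, 61.04% lay below the value of BAG3. The median was -0.10 over the members and -0.05 over all genes, and after rescaling -0.04 and 0.0032.

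**Figure D4:**
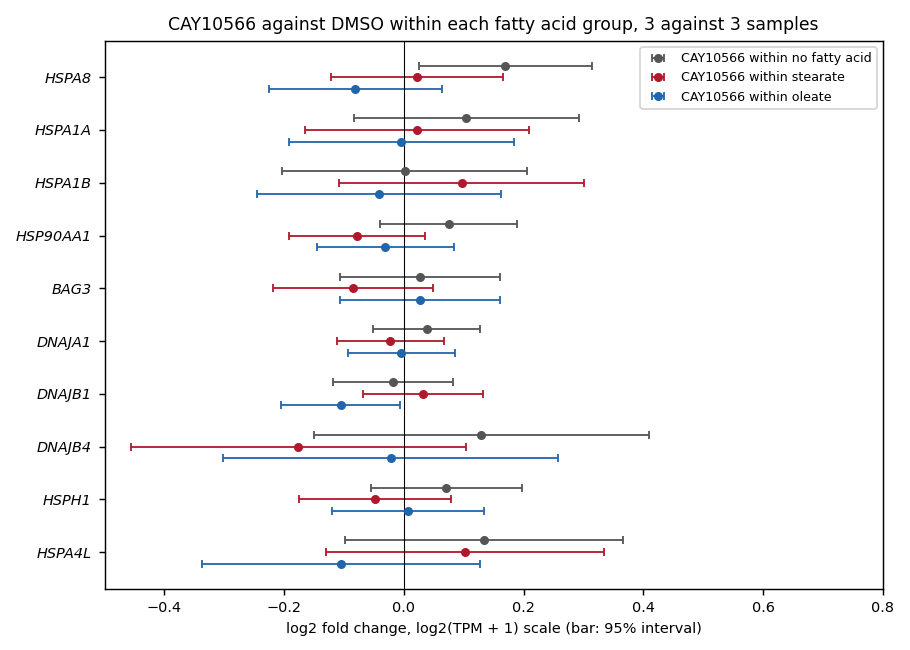
Log2 fold change of CAY10566 against DMSO for each member with no fatty acid (grey), stearate (red) and oleate (blue), on the log2(TPM + 1) scale, 3 against 3 samples, with 95% intervals. The intervals include 0 for all members and groups except HSPA8 with no fatty acid and DNAJB1 with oleate, and neither passed the FDR.

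The members varied together to different degrees. Over the 18 samples, which share the fatty acid groups, Pearson's r of log2(TPM + 1) over the 45 pairs of members had a median of 0.63 (from -0.33 to 0.95). After the condition means were taken off, the median was 0.22. HSPA1A and HSPA1B, which share reads, were at 0.95 and at 0.90 within conditions. DNAJB4 and HSPA4L were at 0.82 and at 0.10 within conditions, whereas HSPH1 and HSP90AA1 were at 0.64 and at 0.88 within conditions. These values are descriptions without a test.

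Among the 10141 other genes with a mean of at least 5 TPM, the 5 whose pattern was most like DNAJB4 over the 18 samples were ACVR1 (r = 0.921), PNPLA8 (0.921), BRD2 (0.907), SNX11 (0.898) and NCOA1 (0.891). HSPA4L stood at rank 82 of that order and DNAJA1 at rank 45. For HSPA4L the first was DNAJA1 (r = 0.911), followed by UFL1 (0.894), MTMR2 (0.892), CNNM4 (0.890) and TRIB1 (0.887). HSP90AA1 was at 0.02 with DNAJB4 and at 0.12 with HSPA4L. The condition means were kept here, so the order partly reflects the stearate rise for which DNAJB4 and HSPA4L were chosen, and it is a description. Within conditions DNAJB4 was at 0.10 with HSPA4L and at 0.04 with DNAJA1, whereas HSPA4L was at 0.615 with DNAJA1.

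The wider chaperone network was read from lists of genes other than the 10 members. Since rescaling by size factors moved many of these genes across the threshold, each count is given before and after it. Over all genes, the shares past the FDR with stearate were 13.5% higher and 5.97% lower before rescaling and 7.76% higher and 10.3% lower after it. With oleate they were 23.0% higher and 2.70% lower before and 8.89% higher and 9.43% lower after, and the counts of each list are to be read against these shares. Before rescaling, 35.67% of all genes lay below the 0.0068 of HSP90AA1 with stearate, so most genes had a positive value there. Of 10 chaperones of the endoplasmic reticulum, all 10 had a higher value in stearate on both scales, 8 at the limma FDR before rescaling and 3 after it, HSPA5, HSP90B1 and HYOU1. DNAJB9, a J-domain protein induced by the unfolded protein response, was the 1 gene that passed the fold as well (0.33 ± 0.11, limma adjusted p = 0.0474), and it no longer passed after rescaling (0.28, adjusted p = 0.0914). HSPA5 (BiP), the HSP70 of that compartment, was at 458 ± 26.3 TPM in control, 558 ± 25.7 TPM in stearate and 478 ± 11.9 TPM in oleate (SD, n = 6). Its log2 differences were 0.28 ± 0.04 for stearate (limma adjusted p = 2.14e-05, and 0.22 with adjusted p = 0.000799 after rescaling) and 0.06 ± 0.04 for oleate (adjusted p = 0.222). In oleate 6 of the 10 were higher at the FDR and 0 at the fold (6.46% of all genes), and 2 were higher at the FDR after rescaling, HYOU1 and CANX.

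In the other lists 0 genes passed the FDR and fold before rescaling, in either direction, for stearate or oleate against control, and after it HSPB1 did with oleate. The genes that passed the limma FDR alone are named here after their values were seen, apart from HSP90AB1. Of 4 other HSP70 genes, HSPA13, which resides in microsomes, was higher on both scales with stearate (0.24 ± 0.05, and 0.18 rescaled) and with oleate (0.30 ± 0.05, and 0.20 rescaled), and HSPA14 was higher with oleate before rescaling alone. HSPA4, the remaining HSP110 gene, was higher with oleate before rescaling (0.12 ± 0.03) and at 0.02 after it. Of 7 other J-domain genes of classes A and B, DNAJB5 was lower with stearate on both scales (-0.29 rescaled), DNAJB2 was higher with stearate before rescaling alone, and 0 passed with oleate on either scale. Of 6 other exchange factors 0 passed with stearate on either scale, BAG5 was higher with oleate on both (0.16 rescaled), and HSPBP1 was lower with oleate after rescaling alone.

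Of 12 HSP90 genes and co-chaperones, FKBP5, CDC37, CHORDC1 and PTGES3 passed the limma FDR before rescaling. FKBP5, an immunophilin that binds HSP90, was higher with stearate (0.16 ± 0.04) and with oleate (0.17 ± 0.04), and CDC37 was higher with oleate, but neither passed after rescaling. PTGES3 (p23) was lower with stearate and CHORDC1 higher with oleate on both scales. HSP90AB1, the constitutive HSP90, was at 0.05 ± 0.02 with stearate (limma adjusted p = 0.17) and at -0.04 ± 0.02 with oleate (adjusted p = 0.183), and after rescaling it was lower with oleate (-0.15, adjusted p = 0.00283). After rescaling 2 genes of the list were lower with stearate and 3 with oleate.

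Of the 2 small heat shock proteins above 1 TPM, HSPB1 (HSP27) was lower on both scales with stearate (-0.20 ± 0.04, and -0.26 rescaled) and with oleate (-0.25 ± 0.04, and -0.36 rescaled). Of the 8 subunits of the CCT chaperonin, which folds actin and tubulin, different numbers passed on each scale. Before rescaling 0 passed with stearate, and CCT2 and CCT5 were higher with oleate. After rescaling 2 were lower with stearate and 3 lower with oleate. Of 7 mitochondrial chaperones TRAP1, the HSP90 of that compartment, was lower with stearate on both scales (-0.19 ± 0.05, and -0.25 rescaled). HSPA9 and DNAJA3 were higher with oleate before rescaling alone, and after it 3 were lower with stearate and 0 passed with oleate.

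HSF1 itself was at 94.6 ± 2.46 TPM in control, 90.9 ± 2.76 TPM in stearate and 92.0 ± 5.24 TPM in oleate (SD, n = 6). Its log2 differences of -0.06 ± 0.03 and -0.04 ± 0.03 did not pass the limma FDR (adjusted p = 0.262 and 0.415). After rescaling it passed in the lower direction, at -0.12 with stearate (adjusted p = 0.0408) and -0.14 with oleate (adjusted p = 0.0163). HSF2 was at 0.06 ± 0.10 and 0.04 ± 0.10, and the latter was -0.05 after rescaling. HSF1 was the sole gene of the 5 heat shock factors and regulators that passed the FDR on either scale against control. Of 19 other HSF1 targets above 1 TPM, HSPB1 and DEDD2 were lower with stearate on both scales, and UBB, SERPINH1 and DNAJB2 were higher before rescaling alone. With oleate those that passed on both scales were CHORDC1, which was higher, and HSPB1, which was lower. HSP90AB1, STIP1 and UBB were lower with oleate after rescaling alone. Median differences over the 19 were 0.03 and 0.06 log2 units, and -0.03 and -0.05 after rescaling. HSPA6, an HSP70 gene that is silent without stress and was chosen after its values were seen, was at 0.22 to 0.54 TPM in control, 0.26 to 0.81 TPM in stearate and 0.31 to 0.57 TPM in oleate, below the level tested.

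**Figure D5:**
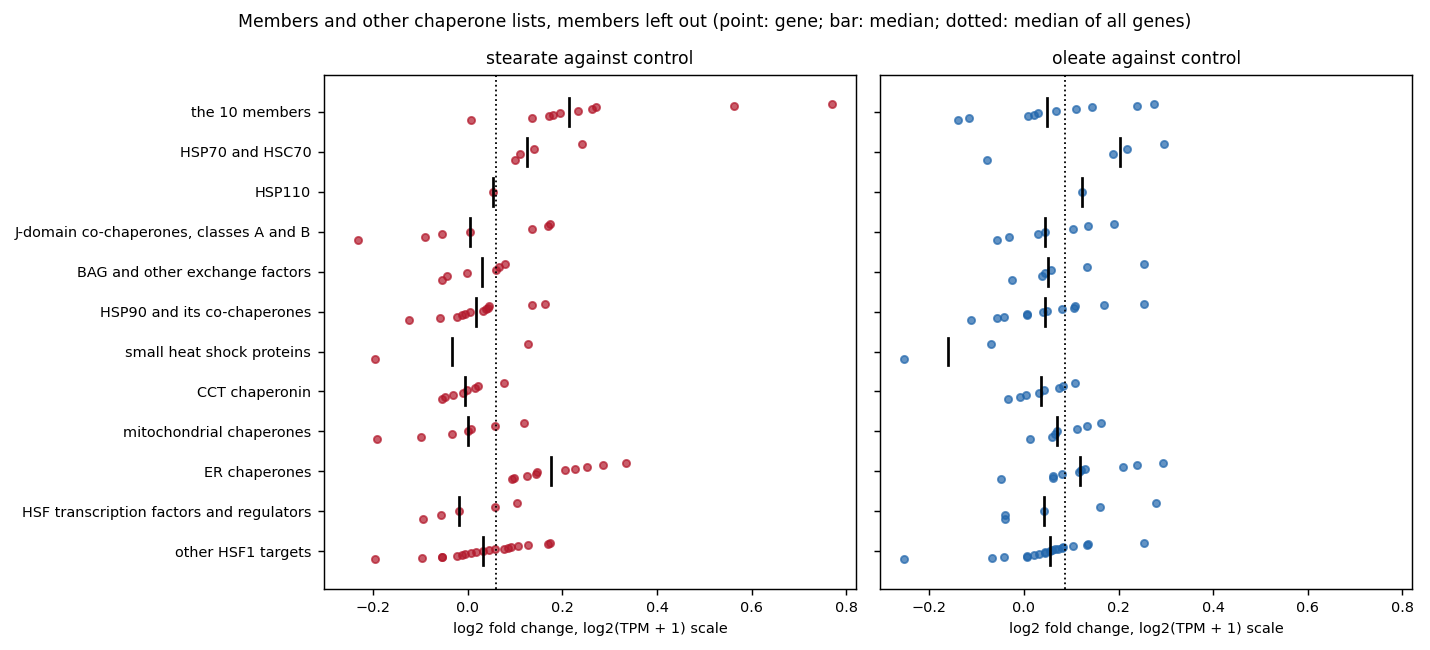
Log2 fold change of each gene on the log2(TPM + 1) scale before rescaling, by list with the 10 members taken out of the other lists, for stearate against control (left) and oleate against control (right). Points are genes, black bars are medians and dotted lines are the median of all genes. For stearate the medians of the members (0.21) and of the chaperones of the endoplasmic reticulum (0.18) lie farthest to the right. The members include DNAJB4 and HSPA4L, which were chosen for this rise, and their median is 0.19 without them. The medians of the CCT subunits (-0.01) and mitochondrial chaperones lie at about 0. Those of the small heat shock proteins (-0.03) and heat shock factors (-0.02) are the lowest.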

How the data were processed

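RNA was measured in 18 OVCAR5 samples, 3 replicates in each of 6 conditions given by the sample labels. The deposited table holds TPM per Ensembl gene, which the authors made from paired-end reads of a stranded mRNA library with Trim Galore, STAR 2.7.1a on GRCh38 and RSEM. TPM keeps no depth. A single line that names no gene was left out, and 93.12% of 60483 identifiers had a symbol.

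The fits used limma 3.58.1 in R 4.3.3 (lmFit and trended eBayes) on log2(TPM + 1) of genes averaging at least 1 TPM, with Benjamini-Hochberg adjustment. A gene was called at an FDR under 0.05 and a difference of more than 25% over the lower group, as in the study's methods. Models held 3 fatty acid groups, CAY10566 with fatty acid as a covariate, or all 6 conditions, and were tested on simulated data. The members and lists were chosen with earlier results of these data known, so the members' stearate differences carry no test. Nor do the oleate differences, interactions and CAY10566 shifts within stearate of DNAJB4 and HSPA4L. For the same reason the p-values of list genes are not independent evidence. The genes named were, by rule, the members, the called list genes with the largest rise or fall, HSF1, HSF2, HSPA5, HSP90AB1 and the 5 genes most like DNAJB4 and HSPA4L, and, after their values were seen, HSPA6 and list genes past the FDR alone. A result for a gene of the list of other HSF1 targets is not reported here. Alternatives were other pseudocounts, filters, scalings, covariates and samples. Coordinates come from GENCODE 44 and promoters from RefSeq.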

Additional observations from a re-analysis of the deposited data

Results flagged for a closer look

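In the 30 groups of 6 samples looked at (10 members, 3 fatty acid groups), 4 had a sample whose gap to the next exceeded Dixon's critical value, where chance gives about 1 in 20. HSPA4L had a low stearate value of 5.61 TPM in stearate+DMSO replicate 3, against 6.84 to 7.40 TPM in the other stearate samples. HSPA1A had a high control value of 61.93 TPM in CAY10566 replicate 3. DNAJA1 had a high stearate value of 104.98 TPM in stearate+DMSO replicate 1. BAG3 had a high oleate value of 43.68 TPM in oleate+CAY10566 replicate 2.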

How the results depend on the processing

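Over 27 settings, each count of members past the FDR and fold kept within 1.5 times its value except that the stearate against control count was 1 (HSPA4L) with the CAY10566 samples only, and oleate against control ran from 0 to 1 when single samples were left out (DNAJB4, without oleate+CAY10566 replicate 2). By the FDR alone, members higher with stearate than in control ran from 2 with the CAY10566 samples only (0.567% of all genes) to 9, as in the main fit (13.5%). Against oleate they ran from 3 with the DMSO samples only (3.48%) to 8, as with size factors (10.5%). For oleate against control, higher members ran from 0 (8.89% of all genes with size factors, 0% with CAY10566 samples only) to 4 (23% in the main fit). Lower members ran from 0 to 2 (size factors, 9.43%). The log2 values against control that changed sign were HSP90AA1 with stearate (-0.0537 with size factors, -0.0696 with CAY10566 samples only, -0.0161 to 0.0285 with single samples left out), and with oleate HSPA8 (-0.0938, -0.116 and -0.0282 to 0.0501), DNAJB1 (-0.0728 and -0.0152 in the first 2 settings), DNAJA1 (-0.0352 with size factors) and BAG3 (-0.0787 with size factors, -0.00502 to 0.0346 with single samples left out). For CAY10566 against DMSO, size factors turned HSP90AA1 from -0.0114 to 0.00399 and BAG3 from -0.0104 to 0.00471. The cause was not tested. Over all genes, size factors took the called genes from 891 higher and 60 lower to 305 and 150 with oleate, and from 477 higher and 261 lower to 267 and 372 with stearate, and stearate against oleate from 220 higher and 659 lower to 313 and 498. Without CAY10566 replicate 3 it was 796 higher for stearate and 1461 for oleate. The DMSO samples alone gave 897 higher and 267 lower for stearate and 1891 and 118 for oleate, and the CAY10566 samples alone 55 and 127 for stearate and 0 and 3 for oleate. With single samples left out, the limma FDR for oleate held in 18 of 18 fits for HSPH1 and 4 for HSP90AA1. As a description, DNAJB4 and HSPA4L were past it in 11 fits each. With no filter on TPM 1 member, HSPH1, passed the limma FDR for oleate, where 7.39% of 30753 genes were higher. With the replicate block the called counts were the same, 2 for stearate against control, 4 for stearate against oleate and 0 for all other comparisons, and HSP90AA1 with oleate had an adjusted p of 0.0512. Same-numbered samples had deviations correlated at -0.18 to 0.10 (median 0.01), and 9 of 18 correlated best with their own number, so the numbers were not taken as pairs. The unknown depth leaves precision to 3 replicates.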
